A study of Mus musculus with 6 samples.

Results

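The 6 genes described here encode the receptors through which microglia sense extracellular nucleotides, and the enzyme that removes those nucleotides: P2ry12, P2ry13 and P2ry6 (G-protein-coupled P2Y receptors), P2rx4 and P2rx7 (ATP-gated P2X channels) and Entpd1 (the ectonucleotidase CD39). They were taken by gene symbol from the deposited table, which held all 6 among its 20129 genes. Microglia, the brain's own macrophages, were sorted as live (7AAD-) CD45+ CD11b+ cells and profiled by RNA sequencing. The Il3-/-5xFAD group lacked interleukin-3, and the 5xFAD group did not. All mice were aged 5 months, were labelled C57BL6/J and carried the 5xFAD transgenes, human amyloid genes with familial Alzheimer's disease mutations driven by the Thy1 promoter, so there was no group without amyloid. Each group had 3 libraries (Il3-/-5xFAD replicates 1, 2 and 3, and 5xFAD replicates 4, 5 and 6), and each library pooled 2 male and 2 female mice of 1 genotype. The p-values below therefore rest on the spread between 3 pools per group, which the test draws towards that of other genes.

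Cells under stress or injury release ATP and UTP, and the brain's microglia read these nucleotides and their breakdown products as local signals. P2Y12 and P2Y13 respond to ADP, and P2Y12 draws the processes of resting microglia towards damage. P2Y6 responds to UDP and promotes phagocytosis, P2X4 lets calcium in at moderate ATP, and P2X7 opens at high ATP and can trigger the NLRP3 inflammasome. CD39 cuts ATP and ADP to AMP, which CD73, encoded by Nt5e, turns into adenosine for the adenosine receptors.

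P2ry12 and P2ry13 lie next to each other on chromosome 3, on the minus strand within the gene Med12l, which runs the other way. Their promoters are shown because the values of these neighbours lay closest to each other among the P2Y genes across the libraries. The RefSeq table (GRCm38.p6) held windows for 5 of the 6 genes and none for P2ry6. The 250 bases before each start, 5′ to 3′ on the gene's strand, were chr3:59262986-59263235 (minus) for P2ry12 and chr3:59210883-59211132 (minus) for P2ry13. Capitals mark the core motif of PU.1, a lineage transcription factor of microglia.
P2ry12: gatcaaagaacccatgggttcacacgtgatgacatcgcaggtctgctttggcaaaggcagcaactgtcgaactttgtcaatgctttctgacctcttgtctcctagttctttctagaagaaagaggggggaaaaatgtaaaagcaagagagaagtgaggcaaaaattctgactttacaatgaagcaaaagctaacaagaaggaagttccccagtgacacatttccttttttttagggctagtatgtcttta
P2ry13: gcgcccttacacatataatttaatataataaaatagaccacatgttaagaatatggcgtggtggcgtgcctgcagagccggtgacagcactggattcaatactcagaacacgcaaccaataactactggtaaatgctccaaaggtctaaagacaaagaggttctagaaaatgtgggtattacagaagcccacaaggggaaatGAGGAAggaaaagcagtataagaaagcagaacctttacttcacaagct
The search used GAGGAA for PU.1 and TTCNNNGAA for STAT factors, which act below the IL-3 receptor, on both strands. P2ry13 held 1 PU.1 core, 48 bases before its start, and P2ry12 held none. The second Entpd1 start held 2, and the windows of P2rx4 and P2rx7 held none. No window of the 5 genes held the STAT letters. Of all 32851 promoter windows of this length, 23.3% held the PU.1 letters and 7.02% the STAT letters. The motifs do not overlap each other in these windows, and a missing match says only that these letters are not there.

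CPM stands for the reads counted for a gene in every 1000000 counted in that library. Totals ran from 28160523 to 32988688 reads in Il3-/-5xFAD and from 27970850 to 37605490 reads in 5xFAD. Il3 had no read in any Il3-/-5xFAD library, which allows up to 0.0909 to 0.107 CPM for a floor of 3 reads, and 54, 61 and 29 reads in 5xFAD replicates 4, 5 and 6. Such floors cover counting error only. Of 10 microglial identity genes, among them Csf1r and Cx3cr1, all 10 were measured and none passed the test. Their summed level was 39391 to 43118 CPM in Il3-/-5xFAD and 38118 to 39937 CPM in 5xFAD. The log2 difference was positive for 9 of them and negative for 1, with a median of 0.12. Some genes of other blood cells fell in Il3-/-5xFAD, beside 0.630% of all tested genes that fell. The 10 neutrophil genes summed to 896 to 1404 CPM in Il3-/-5xFAD and 1831 to 3704 CPM in 5xFAD, and 5 of 9 tested fell. Csf3r, at 674 CPM in Il3-/-5xFAD and 661 CPM in 5xFAD on average, made up much of these sums, and the median log2 difference of the 9 was -1.94, with S100a8 at 96.6 CPM in Il3-/-5xFAD and 405 CPM in 5xFAD. The 9 monocyte genes in the table summed to 98.8 to 182 CPM in Il3-/-5xFAD and 196 to 271 CPM in 5xFAD, and 3 of 8 tested fell (median log2 difference of the 8, -1.03).

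None of the 6 genes passed the test in Il3-/-5xFAD against 5xFAD microglia. P2ry12, P2ry13, P2ry6, P2rx7 and Entpd1 had higher means in Il3-/-5xFAD, and P2rx4 a lower one. Of all tested genes, 49.9% had a positive difference, and of the 10 microglial identity genes 9 did (median 0.12). The log2 differences ran from -0.07 (P2rx4) to 0.20 (P2ry12), with a median of 0.11. Over all 11900 tested genes, limma on log2(CPM + 1) with Benjamini-Hochberg adjustment called 0.882% at an adjusted p under 0.05, and the median difference was -0.00059. At an unadjusted p under 0.05 limma gave 1 of the 6 (P2ry13), against 16.5% of all tested genes. The counts of the 6 were also 0 by edgeR's quasi-likelihood test and by DESeq2. The median size of the 6 differences, 0.11, lay beside 0.11 for the 3987 tested genes whose mean reached 50 CPM. In these sorted bulk samples, fewer cells of a type and less RNA per cell cannot be told apart.

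**Figure D1:**
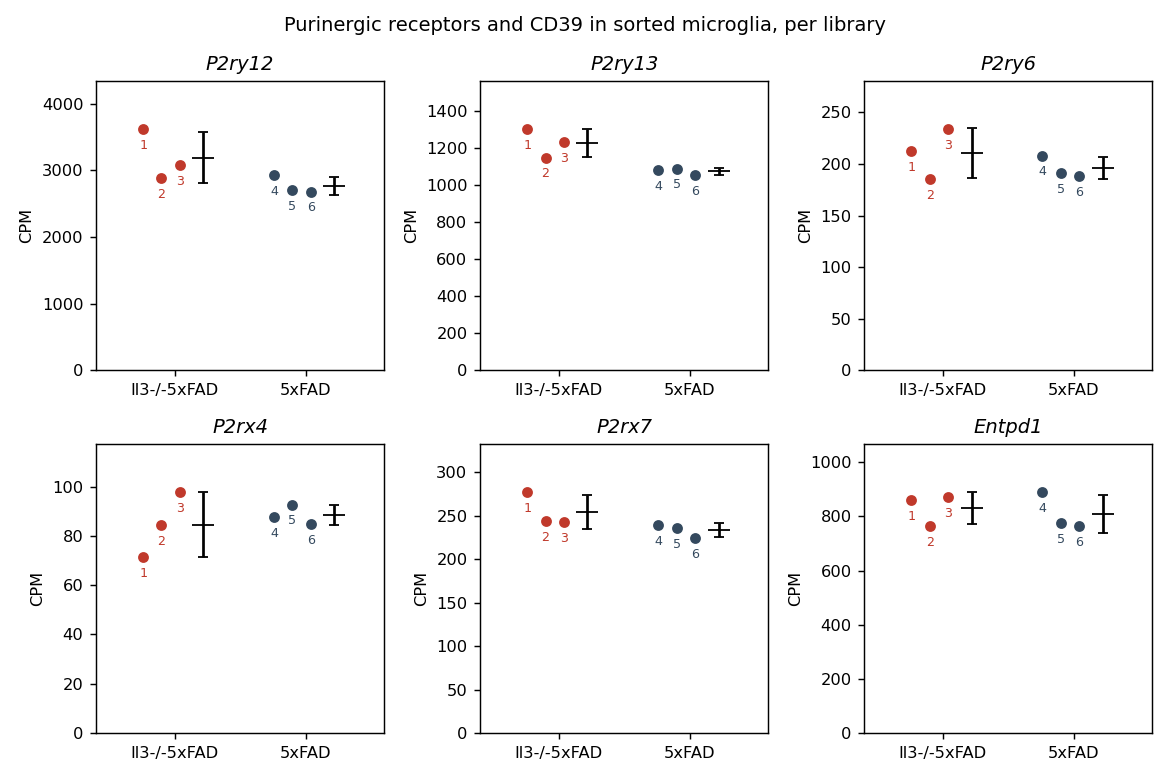
CPM of each of the 6 genes in Il3-/-5xFAD libraries (red, replicates 1 to 3) and 5xFAD libraries (dark, replicates 4 to 6), numbered by replicate; black bars are the mean ± SD of 3 libraries and each vertical axis starts at 0. For P2ry13 and P2rx7 every Il3-/-5xFAD library lies above every 5xFAD library, and for the other 4 genes the groups overlap.

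For 2 of the 6 genes, P2ry13 and P2rx7, no library of one group lay within the range of the other, as in 21.2% of all tested genes. P2ry12, the ADP receptor that marks resting microglia, had 3614, 2877 and 3078 CPM in Il3-/-5xFAD replicates 1, 2 and 3, against 2922, 2703 and 2679 CPM in 5xFAD replicates 4, 5 and 6. The groups overlapped, since Il3-/-5xFAD replicate 2 lay below 5xFAD replicate 4, and Il3-/-5xFAD replicate 1 stood highest. It differed by 0.20 ± 0.12 on the log2 scale (SE; limma adjusted p = 0.426). Its 95% interval ran from -3.67% to 36.8% of the 5xFAD level. Without Il3-/-5xFAD replicate 1 the difference was 0.11.

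P2ry13, a second ADP receptor coupled to inhibitory G proteins, had 1303, 1150 and 1232 CPM in the Il3-/-5xFAD libraries, against 1082, 1091 and 1055 CPM in the 5xFAD libraries. Every Il3-/-5xFAD library lay above every 5xFAD library. The 5xFAD libraries differed little, with an SD of 1.72% of their mean, the smallest among the 6 genes in either group. P2ry13 differed by 0.19 ± 0.09 on the log2 scale (SE; limma adjusted p = 0.30), with a 95% interval from 0.0464% to 29.8%. This interval is not adjusted for the number of genes tested, and 9.65% of all tested genes also had every Il3-/-5xFAD library above every 5xFAD library.

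P2ry6, the UDP receptor linked to phagocytosis, had 212, 186 and 234 CPM in the Il3-/-5xFAD libraries, against 208, 191 and 188 CPM in the 5xFAD libraries. The lowest and the highest of the 6 libraries were both Il3-/-5xFAD, so the groups overlapped fully. On the log2 scale the difference was 0.10 ± 0.09 (SE; limma adjusted p = 0.651), with a 95% interval from -7.06% to 23.4%. The difference was 0.02 without Il3-/-5xFAD replicate 3, 0.19 without Il3-/-5xFAD replicate 2 and 0.16 after a correction for transcript length.

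P2rx4, the ATP-gated channel known in rodents for its induction in spinal microglia after nerve injury, had 71.3, 84.3 and 97.8 CPM in the Il3-/-5xFAD libraries. It had 87.5, 92.7 and 84.9 CPM in the 5xFAD libraries, which lay inside the range of the Il3-/-5xFAD libraries. The SD was 15.7% of the mean in Il3-/-5xFAD and 4.51% in 5xFAD. The P2rx4 difference was -0.07 ± 0.11 on the log2 scale (SE; limma adjusted p = 0.791), with a 95% interval from -19.7% to 12.3%. Without Il3-/-5xFAD replicate 1 it was 0.040, with the opposite sign, and without Il3-/-5xFAD replicate 3 it was -0.18.

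P2rx7, the channel that opens at high ATP, lies beside P2rx4 on chromosome 5. It had 278, 244 and 243 CPM in the Il3-/-5xFAD libraries, against 240, 236 and 225 CPM in the 5xFAD libraries. Every Il3-/-5xFAD library lay above every 5xFAD library, narrowly for replicates 2 and 3. For P2rx7 it came to 0.12 ± 0.08 on the log2 scale (SE; limma adjusted p = 0.484), with a 95% interval from -3.66% to 23.0%. It was 0.06 without Il3-/-5xFAD replicate 1 and 0.07 after the length correction.

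Entpd1, which encodes CD39, had 860, 764 and 873 CPM in the Il3-/-5xFAD libraries, against 891, 775 and 765 CPM in the 5xFAD libraries. The groups overlapped over nearly their whole range, and the highest library was 5xFAD replicate 4. The log2 difference was 0.04 ± 0.09 (SE; limma adjusted p = 0.879), with a 95% interval from -10.7% to 18.3%. Leaving out 5xFAD replicate 4 gave 0.11, leaving out Il3-/-5xFAD replicate 2 gave 0.10, and leaving out 5xFAD replicate 6 gave -0.00042.

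The 6 genes were among the better measured of the table, with 2124 to 107644 reads per library. Their intervals rest on the spread between pools, which limma draws towards that of other genes at a like level. Per kilobase of the longest GENCODE transcript, P2ry12 was at 1361 ± 163 CPM per kb in Il3-/-5xFAD and 1181 ± 57.1 CPM per kb in 5xFAD (SD, n = 3 each), and by its mean over all libraries it ranked 28 of the 19464 genes with a length. P2ry13 followed at 486 ± 30.4 CPM per kb in Il3-/-5xFAD and 426 ± 7.34 CPM per kb in 5xFAD. Entpd1 came next at 197 ± 14 CPM per kb in Il3-/-5xFAD and 192 ± 16.6 CPM per kb in 5xFAD. P2ry6 was at 108 ± 12.4 CPM per kb in Il3-/-5xFAD and 101 ± 5.5 CPM per kb in 5xFAD. P2rx7 was at 51.6 ± 3.99 CPM per kb in Il3-/-5xFAD and 47.3 ± 1.59 CPM per kb in 5xFAD, and P2rx4 was lowest, at 21.7 ± 3.4 CPM per kb in Il3-/-5xFAD and 22.7 ± 1.02 CPM per kb in 5xFAD. In this order, the lowest library of each gene lay above the highest library of the next. No stretch of 50 bases in the transcripts of P2ry12, P2ry13, P2ry6 or Entpd1 occurred in transcripts of another gene, and the shares for P2rx4 and P2rx7 were 1.36% and 1.17%.

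Ratios between genes within a library do not depend on its scaling. The P2ry12 to P2ry13 ratio was 2.77, 2.50 and 2.50 in Il3-/-5xFAD replicates 1, 2 and 3, against 2.70, 2.48 and 2.54 in 5xFAD replicates 4, 5 and 6. The neighbours thus kept nearly the same proportion in both groups (mean log2 ratio 1.37 ± 0.09 in Il3-/-5xFAD and 1.36 ± 0.06 in 5xFAD; SD, n = 3 each). The P2ry12 to Entpd1 ratio was 4.20, 3.76 and 3.53 in Il3-/-5xFAD, against 3.28, 3.49 and 3.50 in 5xFAD. Here the groups did not overlap, by a narrow margin, and no test was made. For every other ratio computed the groups overlapped, including P2ry12 to P2ry6 and P2ry12 to P2rx4. Among single genes, the groups did not overlap in 21.2% of those tested. The P2rx4 to P2rx7 ratio was 0.257, 0.345 and 0.403 in Il3-/-5xFAD, against 0.365, 0.392 and 0.377 in 5xFAD. It varied more among the Il3-/-5xFAD libraries than between the groups.

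Across the 6 libraries, which share the contrast between groups, P2ry12 had a Pearson r of 0.95 with P2rx7 and 0.92 with P2ry13, and of -0.63 with P2rx4. P2ry6 and Entpd1 had a Pearson r of 0.87. The genes most like each of the 6, among the 6926 others whose mean reached 20 CPM, were Tppp (r = 0.996) and Fbrsl1 (r = 0.996) for P2ry12 and Gba2 (r = 0.998) and Wdfy3 (r = 0.99) for P2ry13. For P2ry6 they were the microglial gene Tmem119 (r = 0.985) and Acaa1a (r = 0.98), and for P2rx4 Adap1 (r = 0.985) and Nucb2 (r = 0.971). Arhgef2 (r = 0.992) and Mapk8ip3 (r = 0.99) lay closest to P2rx7, and Zbtb17 (r = 0.982) and Arrb2 (r = 0.977) to Entpd1. With 6 points and this many genes, values this high are a description only.

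The other genes of, or named with, nucleotide and adenosine signalling were taken from 10 lists with 68 genes, of which 64 were in the table and 53 passed the expression filter. Of these 53, 2 fell in Il3-/-5xFAD, none rose and 51 did not pass, and the median log2 difference was -0.04. Of all tested genes, 0.630% fell and 0.252% rose. Those that fell were Nt5e and Slc28a2. At an unadjusted p under 0.05 there were 9 of the 53, against the 16.5% of all tested genes.

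**Figure D2:**
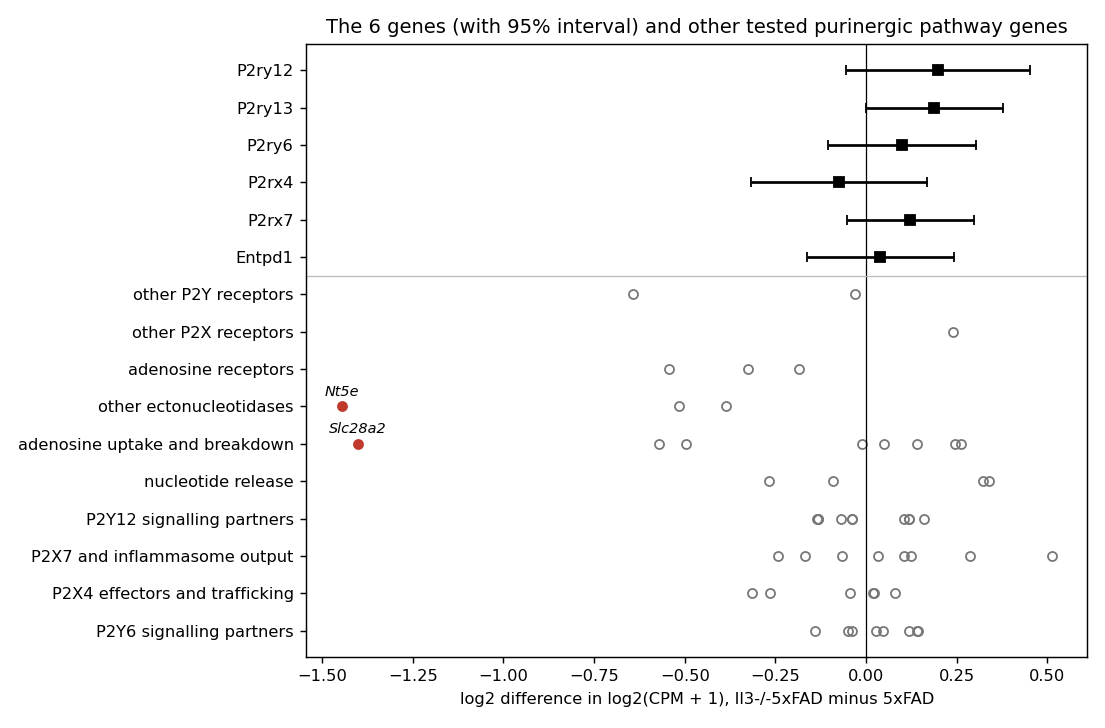
Log2 differences (horizontal axis, Il3-/-5xFAD minus 5xFAD, on the log2(CPM + 1) scale) of the 6 genes (squares, with 95% intervals) and of the 53 tested genes of 10 purinergic lists (circles, filled red where the limma adjusted p was under 0.05). Nt5e and Slc28a2 are the filled circles at -1.45 and -1.40, and the 6 genes lie between -0.07 and 0.20.

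Nt5e, which encodes CD73, the enzyme that takes the AMP made by CD39 to adenosine, had 1.71, 0.852 and 0.788 CPM in the Il3-/-5xFAD libraries (51, 24 and 26 reads), against 4.29, 3.83 and 6.12 CPM in the 5xFAD libraries (120, 112 and 230 reads). All Il3-/-5xFAD libraries lay below all 5xFAD libraries, as in 11.5% of tested genes. The log2 difference was -1.45 ± 0.27 (SE; limma adjusted p = 0.0378). The transcript was scarce, at 0.28 ± 0.129 CPM per kb in Il3-/-5xFAD and 1.19 ± 0.303 CPM per kb in 5xFAD, far below Entpd1 in both groups (SD, n = 3 each).

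Slc28a2, which encodes a concentrative nucleoside transporter that takes up adenosine, had 2.82, 1.88 and 0.909 CPM in the Il3-/-5xFAD libraries, against 5.86, 6.73 and 6.30 CPM in the 5xFAD libraries. The groups did not overlap, as in 21.2% of all tested genes, and the log2 difference was -1.40 ± 0.27 (SE, limma adjusted p = 0.0421). Of its stretches of 50 bases, 35.4% also occur in Gm14085, which had no read in 5 libraries and 0.308 CPM in 5xFAD replicate 5. The pair together stood at 1.87 ± 0.956 CPM in Il3-/-5xFAD and 6.40 ± 0.595 CPM in 5xFAD (SD, n = 3 each). Whether reads from the shared stretches were counted is not given in the sources used here, so this sum cannot show what the sharing did to the values.

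Both calls were lost when Il3-/-5xFAD replicate 2, 5xFAD replicate 5 or 5xFAD replicate 6 was left out (limma adjusted p of 0.0998, 0.0979 and 0.257 for Nt5e and 0.089, 0.163 and 0.239 for Slc28a2), and by edgeR with TMM factors (adjusted p of 0.0688 and 0.0792). Without these libraries in turn, the log2 differences stayed near their size, at -1.36, -1.56 and -1.28 for Nt5e and -1.43, -1.36 and -1.40 for Slc28a2. By edgeR they were larger, at -2.09 for Nt5e and -1.75 for Slc28a2. A pseudocount of 5, which shrinks differences of scarce genes, gave -0.67 for Nt5e and -0.73 for Slc28a2, and both still passed. T cells are among the blood cells known to carry CD73, and how many of them passed the CD11b+ gate was not measured. The 12 lymphocyte genes summed to 40.9 to 55.9 CPM in Il3-/-5xFAD and 82.7 to 174 CPM in 5xFAD. Of 9 tested, 3 fell (Cd3d, Cd3g and Lck), against 0.630% of all tested genes. Cd3g was at 7.58 ± 0.403 CPM in Il3-/-5xFAD and 21.1 ± 7.44 CPM in 5xFAD (SD, n = 3 each). Of 4 tested choroid plexus genes, 2 fell (Ttr and Enpp2). The part of lymphocytes, monocytes, neutrophils and choroid plexus cells in the values of Nt5e and Slc28a2 was not tested.

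**Figure D3:**
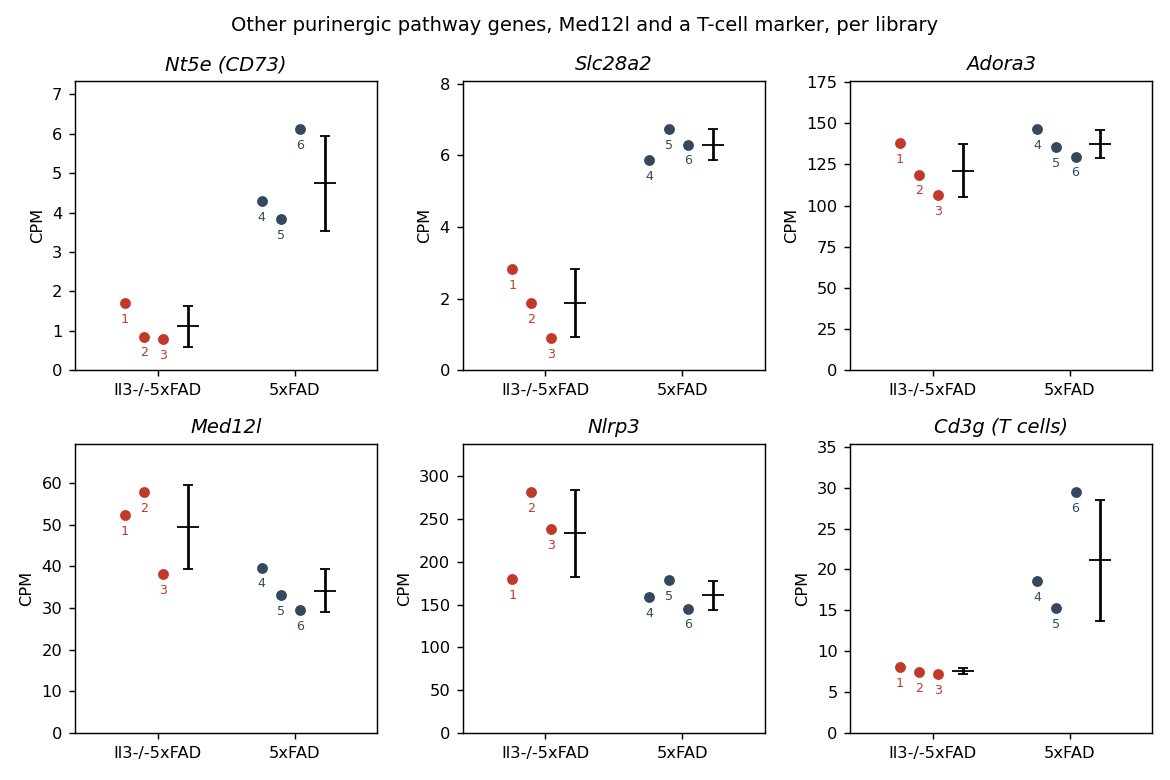
CPM of Nt5e, Slc28a2, Adora3, Med12l, Nlrp3 and the T-cell gene Cd3g in Il3-/-5xFAD libraries (red, replicates 1 to 3) and 5xFAD libraries (dark, replicates 4 to 6); black bars are the mean ± SD of 3 libraries and axes start at 0. Nt5e, Slc28a2 and Cd3g were lower in every Il3-/-5xFAD library, as in 11.5% of all tested genes. Nlrp3 was higher in every Il3-/-5xFAD library, narrowly for replicate 1, as in 9.65% of all tested genes. Adora3 and Med12l overlapped.

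None of the 3 tested adenosine receptors passed. Adora3, which encodes the adenosine A3 receptor, was at 121 ± 15.9 CPM in Il3-/-5xFAD and 137 ± 8.44 CPM in 5xFAD (log2 difference -0.18 ± 0.10 SE; limma adjusted p = 0.396), and Adora1 was at 5.17 ± 2.31 CPM in Il3-/-5xFAD and 6.50 ± 1.97 CPM in 5xFAD. Adora2a had 2.01, 1.42 and 1.00 CPM in the Il3-/-5xFAD libraries, against 2.18, 2.05 and 3.67 CPM in the 5xFAD libraries (log2 difference -0.54; limma adjusted p = 0.367). Adora2b, below the filter and untested, had 0.201, 0.0355 and 0 CPM in the Il3-/-5xFAD libraries, against 0.322, 1.06 and 0.904 CPM in the 5xFAD libraries. For both, every Il3-/-5xFAD library lay below every 5xFAD library, as in 11.5% of all tested genes. Adora2b had at most 34 reads in any library, and both are named in addition to the 2 most abundant genes of this list. Of the other genes with P2Y symbols, P2ry10, which encodes a lysophosphatidylserine receptor and not a nucleotide receptor (3.72 ± 1.75 CPM in Il3-/-5xFAD and 6.03 ± 1.01 CPM in 5xFAD), and the nucleotide receptor gene P2ry2 (1.5 ± 0.385 CPM in Il3-/-5xFAD and 1.6 ± 0.718 CPM in 5xFAD) passed the filter and neither passed the test. P2ry14, which shares the cluster with P2ry12 and P2ry13, had at most 1.55 CPM in any library. The cluster's host gene Med12l was at 49.5 ± 10.1 CPM in Il3-/-5xFAD and 34.1 ± 5.17 CPM in 5xFAD (0.51 ± 0.16 SE; limma adjusted p = 0.124). Med12l and P2ry12 share 9 exonic bases on opposite strands in GENCODE, and whether counting used strand is not given in the sources used here.

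Of the other P2X receptors, P2rx1 alone passed the filter. It lies on chromosome 11, as Il3 does, and was at 10.3 ± 1.6 CPM in Il3-/-5xFAD and 9.08 ± 4.41 CPM in 5xFAD (limma adjusted p = 0.701). P2rx5, also on chromosome 11, had at most 0.425 CPM, and P2rx3 at most 0.546 CPM. Among nucleotide release genes, none of 4 tested passed. Lrrc8a, a subunit of the volume-regulated anion channel, was at 100.4 ± 13.2 CPM in Il3-/-5xFAD and 80.0 ± 9.58 CPM in 5xFAD (log2 difference 0.32 ± 0.11 SE; limma adjusted p = 0.179). Calhm2, of a channel family that includes ATP release channels, was at 55.6 ± 5.39 CPM in Il3-/-5xFAD and 59.3 ± 5.6 CPM in 5xFAD.

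None of 10 genes of the P2Y12 pathway passed, among them the inhibitory G-protein subunit Gnai2 (732 ± 77.3 CPM in Il3-/-5xFAD and 800 ± 29.9 CPM in 5xFAD) and the GTPase Rap1b (479 ± 3.06 CPM in Il3-/-5xFAD and 493 ± 34.4 CPM in 5xFAD). None of 8 genes of the P2Y6 pathway passed either, with the cytoskeletal GTPase gene Cdc42 at 647 ± 19.7 CPM in Il3-/-5xFAD and 670 ± 13.6 CPM in 5xFAD, and Rac1 at 444 ± 19.0 CPM in Il3-/-5xFAD and 456 ± 5.97 CPM in 5xFAD. Of 6 tested genes linked to P2X4, none passed, among them the protease gene Ctss (7304 ± 822 CPM in Il3-/-5xFAD and 9045 ± 222 CPM in 5xFAD) and the lysosomal gene Lamp1 (1193 ± 91.6 CPM in Il3-/-5xFAD and 1432 ± 70.1 CPM in 5xFAD). For Ctss and Lamp1 every Il3-/-5xFAD library lay below every 5xFAD library, as in 11.5% of all tested genes. None of 8 genes around P2X7 and the inflammasome passed, with Txnip at 1383 ± 179.6 CPM in Il3-/-5xFAD and 1134 ± 149 CPM in 5xFAD. Il1b, whose product is released after P2X7 opens, was at 235 ± 74.6 CPM in Il3-/-5xFAD and 257 ± 15.6 CPM in 5xFAD. Nlrp3, named after its values were seen, had 180, 282 and 238 CPM in the Il3-/-5xFAD libraries, against 159, 179 and 145 CPM in the 5xFAD libraries. It lies on chromosome 11, and its log2 difference of 0.51 ± 0.14 did not pass (SE; limma adjusted p = 0.0926).

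**Figure D4:**
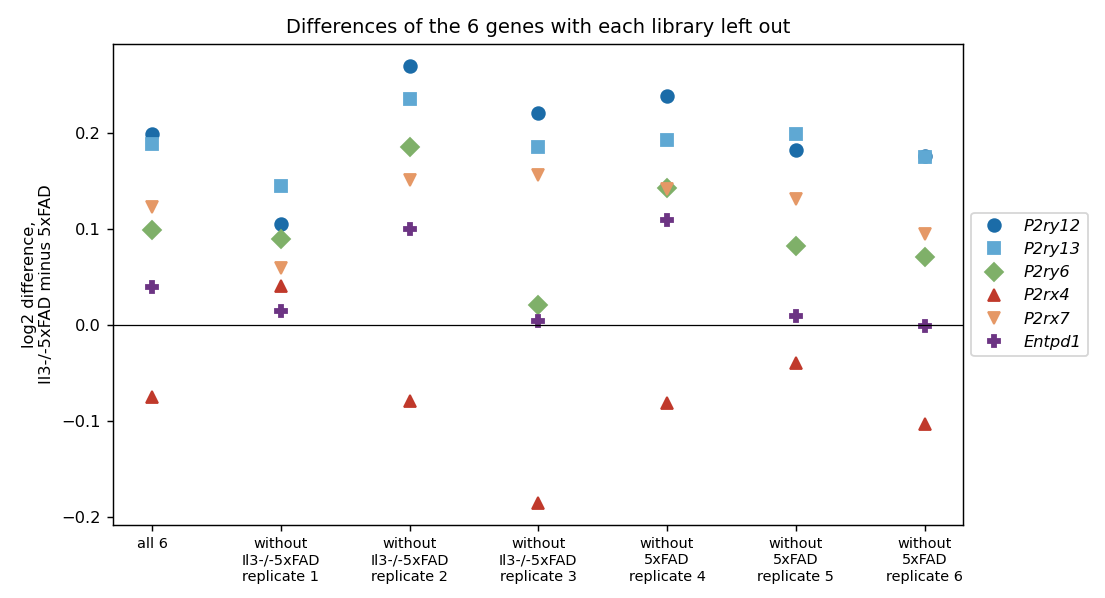
Log2 difference (vertical axis, Il3-/-5xFAD minus 5xFAD, on the log2(CPM + 1) scale) of each of the 6 genes with all 6 libraries and with each library left out in turn. P2ry12, P2ry13, P2ry6 and P2rx7 stay above 0 throughout, P2rx4 is above 0 (0.040) only without Il3-/-5xFAD replicate 1, and Entpd1 is at -0.00042 without 5xFAD replicate 6.

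Over all genes the log2 differences varied with transcript length: their median was -0.14 among the 2349 shortest and 0.09 among the 2349 longest. P2ry6 lay in the shortest group, P2ry12 and P2ry13 in the next (median -0.03), P2rx4 in the middle (median 0.00) and P2rx7 and Entpd1 in the fourth (median 0.04). After each library's trend with length was removed, the differences were 0.24 for P2ry12, 0.22 for P2ry13, 0.16 for P2ry6, 0.07 for P2rx7, 0.01 for Entpd1 and -0.10 for P2rx4, and none passed.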

How the data were processed

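RNA was measured in 6 libraries of sorted microglia, made with a directional kit that selects polyA RNA, per the labels' protocols. The deposited values are CPM in 1 table, with columns that each sum to 1000000. STAR, HTSeq, edgeR and the build mm9 are named, without versions or roles, per the submitters' processing notes; which annotation, counting mode or filter was used is not given in the sources used here. All values (100%) were whole multiples of the worth of 1 read (tolerance 0.01 reads), so reads were recovered, and edgeR with TMM factors called 60 genes on them. No library pair within a group agreed within sampling noise (chi-square per degree of freedom of at least 23.4).

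Groups and replicate numbers came from the sample titles, and the groups share no number. The 11900 genes that reached 1 CPM in 3 or more libraries were tested with limma 3.58.1 (R 4.3.3; lmFit, eBayes with trend, two-sided) on log2(CPM + 1), subtracting 5xFAD from Il3-/-5xFAD, and p-values were adjusted over all of them by Benjamini-Hochberg; this scale understates changes of low genes. The step was tested on simulated reads with 1 spread setting for all genes and changes of at least 2-fold. Those changes were larger than the differences of the 6 genes, so the simulation does not cover differences of that size. Intervals are 95% limma intervals, given as percent changes of CPM + 1. Alternatives were other pseudocounts, filters, scalings and variance models, each library left out, edgeR 4.0.16 and DESeq2 1.42.0; a length correction (lowess) was added after the data had been seen. Named were the 6 genes, their 2 most alike, the called genes of each list or else its 2 most abundant, and neighbours of P2ry12 or Il3. Adora2a, Adora2b, Nlrp3 and some marker genes were named beyond this rule. The genes and lists were chosen with earlier results of these data known. Transcript lengths and overlaps came from GENCODE (GRCm38), which is not the build of the files, and 19464 of 20129 symbols had a length.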

Additional observations from a re-analysis of the deposited data

How the results depend on the processing

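None of the 6 genes passed in any of 18 alternatives, and their lowest adjusted p was 0.106 (P2ry13, DESeq2). Without 1 library, log2 differences ran from 0.11 to 0.27 for P2ry12, 0.15 to 0.24 for P2ry13, 0.02 to 0.19 for P2ry6, -0.18 to 0.040 for P2rx4, 0.06 to 0.16 for P2rx7 and -0.00042 to 0.11 for Entpd1. The sign turned for P2rx4 without Il3-/-5xFAD replicate 1 (0.040) and for Entpd1 without 5xFAD replicate 6 (-0.00042), and the cause was not tested. The count of other pathway genes called, 2 in the report, was 1 with a pseudocount of 0.25 or median-ratio rescaling (Nt5e), 4 by DESeq2 (with Ctss and Nlrp3) and 0 with no filter, a mean of at least 5 CPM, quantile normalization, no variance trend, or edgeR with TMM or library totals. A mean of at least 5 CPM left Nt5e and Slc28a2 untested. The count was 0 to 3 without 1 library, with 0 without Il3-/-5xFAD replicate 2 or 5xFAD replicate 5 or 6. The call of Nt5e held in 9 of 17 alternatives and that of Slc28a2 in 7 of 17. Over all genes, 105 calls became 8 with no filter, 10 without the trend, 60 by edgeR with TMM, 605 by DESeq2 and 15 to 605 without 1 library. Of the scalings, quantile normalization moved the median of all genes most, to 0.02. No paired analysis was possible because the groups share no replicate number. With 3 pools per group, true differences anywhere within the 95% intervals of the 6 genes could have gone undetected.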

Other observations

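Markers of further cell types were also read in the sort, at levels that differed between the types. The 6 choroid plexus genes summed to 63.2 to 131 CPM in Il3-/-5xFAD and 183 to 516 CPM in 5xFAD. Of 4 tested, 2 fell (Ttr and Enpp2), against 0.630% of all tested genes. Enpp2 encodes autotaxin, of the same enzyme family as the ectonucleotidases Enpp1 and Enpp3. None of the tested border-associated macrophage, dendritic cell, endothelial and mural, platelet, astrocyte, oligodendrocyte or neuron genes passed limma's adjusted threshold. Border-associated macrophage genes summed to 109 to 147 CPM in Il3-/-5xFAD and 140 to 176 CPM in 5xFAD, and endothelial and mural genes to 71.1 to 77.1 CPM in Il3-/-5xFAD and 71.1 to 92.1 CPM in 5xFAD. Of the 7 endothelial and mural genes tested, 3 had a positive and 4 a negative log2 difference. Flt1 averaged 9.25 CPM in Il3-/-5xFAD and 27.4 CPM in 5xFAD (limma adjusted p = 0.0510). Acta2 averaged 2.94 CPM in Il3-/-5xFAD and 0.664 CPM in 5xFAD (limma adjusted p = 0.0734). Astrocyte genes summed to 131 to 153 CPM in Il3-/-5xFAD and 144 to 174 CPM in 5xFAD, mostly from Slc1a3 (means of 126 CPM in Il3-/-5xFAD and 124 CPM in 5xFAD). Gfap averaged 8.08 CPM in Il3-/-5xFAD and 23.1 CPM in 5xFAD (limma adjusted p = 0.0660), and Slc1a2 averaged 2.04 CPM in Il3-/-5xFAD and 5.36 CPM in 5xFAD (limma adjusted p = 0.0939). For both, every Il3-/-5xFAD library lay below every 5xFAD library, as in 11.5% of all tested genes. Oligodendrocyte genes summed to 161 to 177 CPM in Il3-/-5xFAD and 193 to 210 CPM in 5xFAD. Platelet genes, of a cell type that also uses P2Y12, summed to 18.1 to 28.0 CPM in Il3-/-5xFAD and 19.2 to 24.1 CPM in 5xFAD. Most came from Gp9 (means of 14.9 CPM in Il3-/-5xFAD and 11.4 CPM in 5xFAD) and Pf4 (4.39 CPM in Il3-/-5xFAD and 5.74 CPM in 5xFAD). Ppbp and Gp1bb were at or near 0. Neuron genes summed to 2.84 to 3.43 CPM in Il3-/-5xFAD and 2.97 to 5.18 CPM in 5xFAD, and dendritic cell genes to 1103 to 1177 CPM in Il3-/-5xFAD and 1110 to 1139 CPM in 5xFAD, nearly all from Siglech, which microglia also express.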
